A study of Mus musculus with 4 samples.

Results

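Genes of the DNA damage response and of DNA repair were examined in mouse 2-cell embryos cultured with or without dimethyl sulfoxide (DMSO), the solvent used to dissolve drugs and to protect frozen cells. The genes were taken by name from a list of 42, chosen with earlier results of these data known. They were sorted into the p53 pathway, damage signalling, homologous recombination, end joining, mismatch repair, base excision repair, nucleotide excision repair and the Fanconi anaemia pathway. Of these, 41 were found among the 30049 genes of the expression table, 37 passed a filter of a mean level of 1 TPM or more over the 4 libraries (TPM being a transcript's share of its library after division by its length), and 1 listed gene was not analysed here. The embryos were wild-type and came from BDF1 mice, the F1 cross of C57BL/6 and DBA/2, aged 8 to 12 weeks, and the mothers had been superovulated. Zygotes collected 18 h after human chorionic gonadotropin were kept for 24 h in KSOM, an embryo culture medium, with 2% DMSO (DMSO-treated embryos) or without it (control embryos). Each group had 2 RNA-seq libraries and 50 pooled embryos, and the sources do not say whether each library held 50 embryos or whether the 2 libraries came from separate litters, so the p-values measure only the spread between these libraries, which may be technical.

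A broken or damaged DNA strand is sensed by the kinases ATM and ATR, which pass the signal to the checkpoint kinases CHK2 and CHK1 and to p53, and these hold the cell cycle while repair proceeds. Double-strand breaks are mended by homologous recombination or by end joining, single damaged bases by base excision repair, bulky lesions by nucleotide excision repair, copying errors by mismatch repair, and crosslinks by the Fanconi anaemia pathway. An early mouse embryo carries many of the needed transcripts and proteins over from the oocyte and begins to transcribe its own genome during the first cell cycles.

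Of the 37 genes tested, 4 fell in DMSO-treated embryos and none rose (limma on log2(TPM + 1), Benjamini-Hochberg adjusted p under 0.05 over all 12038 genes tested). The 4 were Fanci, a subunit of the Fanconi anaemia complex that binds crosslinked DNA, Xrcc1, the scaffold of base excision and single-strand break repair, and the kinases Chek2 and Atm. This was 10.8% of the 37 genes, while 20.5% of all 12038 genes tested were called, 14.1% of the 12038 lower and 6.42% higher. Xrcc1 passed the filter only through the control libraries, as its mean with DMSO was under 1 TPM, so its call is no support for a fall of the list. Brca1 passed in the same way, but its groups overlapped and it was not called. Without Xrcc1 3 genes were called. Among all genes tested, 1399 had a mean under 1 TPM in one group, and 185 of these were called lower and 116 higher. With no adjustment, 14 of the 37 (37.8%) had a p under 0.05, beside 40.2% of all genes. Both DMSO-treated libraries lay below both control libraries for 20 of the 37 genes (54.1%) and above them for 10 (27.0%), against 38.7% and 31.1% of all genes, and the groups overlapped for the other 7. The median log2 fold change of the 37 genes was -0.56, with extremes of -2.65 and 1.03, and that of all genes was -0.09. The plot of levels by library shows each gene in each library.

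**Figure D1:**
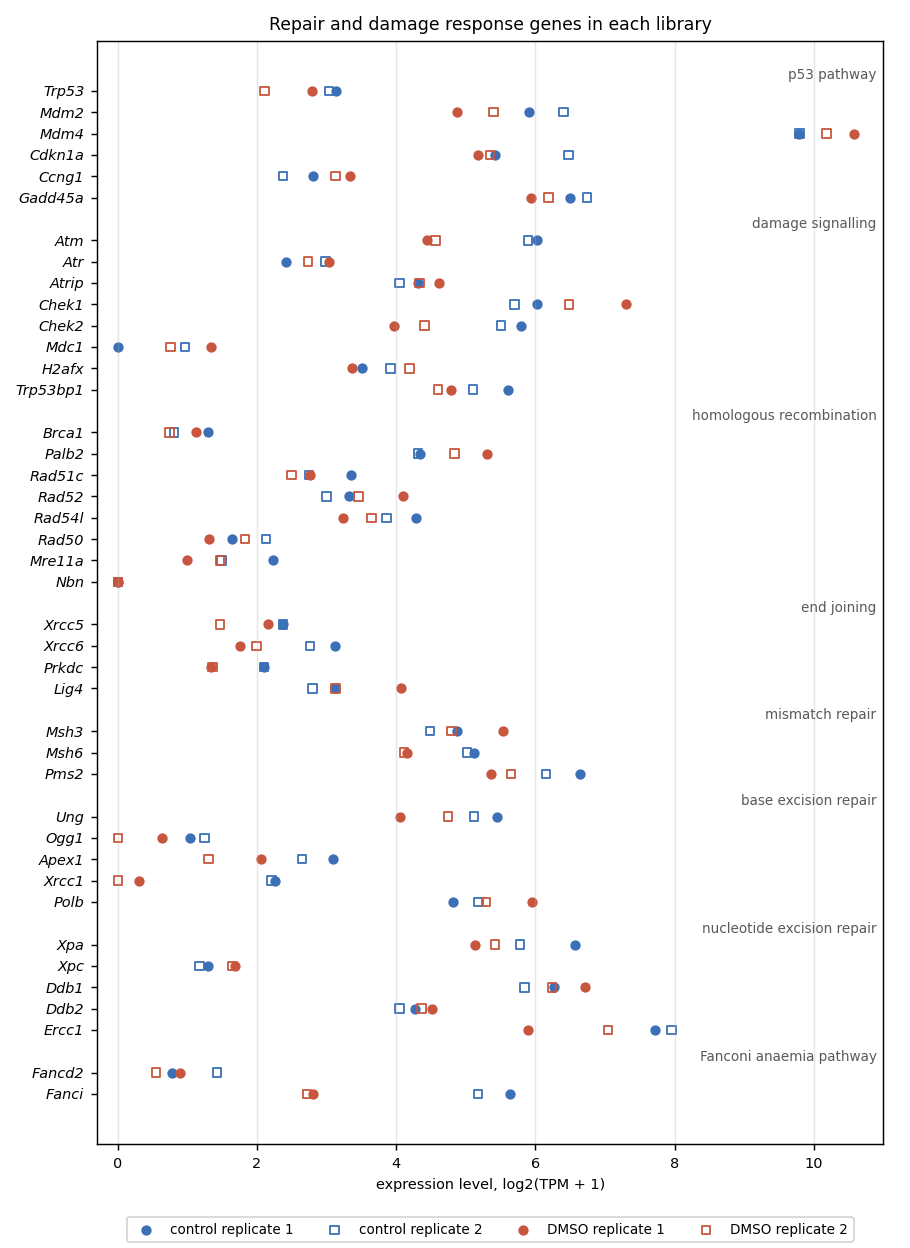
Expression level of each of the 41 genes on the log2(TPM + 1) scale (x axis), with 1 point per library and the genes grouped by pathway. Mdm4 stood highest in every library, Nbn was listed at 0 in all 4, and Fanci and Xrcc1 had the widest gaps between the control and the DMSO-treated libraries.

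The number of calls over all genes depended on single libraries. Leaving out control replicate 1, control replicate 2 or DMSO replicate 1 left 0 of 12038 genes called by limma, with 3745, 2602 and 3078 genes at an unadjusted p under 0.05, so 0 of the 4 genes passed, while without DMSO replicate 2 all 4 and Ercc1 were called lower among 1883 genes called. The log2 fold changes of the 4 moved little over these fits, from -2.88 to -2.42 for Fanci, -2.23 to -1.93 for Xrcc1, -1.68 to -1.25 for Chek2 and -1.52 to -1.39 for Atm. The filter on low values mattered as well, since testing all 22257 genes above 0 TPM gave 0 calls, with 5368 at an unadjusted p under 0.05. When the shared replicate numbers were used as a block, 12 of the 37 genes were called lower and 3 higher, beside 24.8% and 17.9% of all genes.

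Markers of the labelled stage were present, as all 10 markers of the 2-cell embryo were detected in every library, with summed levels of 12408 and 15880 TPM in the control and 11919 and 16025 TPM in the DMSO-treated libraries. Most of each sum came from Dppa3, which oocytes express as well, at 11639 and 15346 TPM in control and 10828 and 15216 TPM in DMSO-treated libraries, and 1 of the 10 was called lower and 1 higher. The 10 oocyte and zygote markers summed to 1188 and 776 TPM in control and 3012 and 2309 TPM in DMSO-treated libraries. Most of each sum was Oosp1, at 877 and 576 against 2086 and 1763 TPM. Of 9 tested, 2 were called higher (Oosp1 and Bmp15). Zp3 and Mos had negative log2 fold changes (-0.42 and -0.54) and were not called, and Nlrp5 was at 0.142 TPM or less in every library. Markers of sperm and male germ cells, 6 in number, summed to 2.96 and 3.39 TPM in control and 13.5 and 8.69 TPM in DMSO-treated libraries. Prm2 led, Tnp2 was at 0 throughout, and the 2 tested, Prm2 and Tnp1, were called higher. Tnp1, at 0.281 and 0 against 2.08 and 1.69 TPM, passed the filter only through the DMSO-treated libraries, so its call is no support for a rise. For cumulus and granulosa cells the 10 markers summed to 38.8 and 30.5 against 10.7 and 18.6 TPM. Most of each sum was Amhr2, at 36.8 and 29.6 against 8.29 and 16.5 TPM, the only one tested and called lower. Amh, Inhba and Lhcgr were at 0. The 5 oviduct markers, led by Ovgp1, had sums of 21.1 and 23.8 against 31.6 and 40.2 TPM, and the 6 blood cell markers, led by Hba-a2 and with Hbb-bt at 0, had sums of 11 and 4.35 against 10.8 and 16.3 TPM. None of the 3 oviduct and 2 blood markers tested was called. The 20 most abundant genes of a library took 22.15% and 23.63% of its TPM sum in control and 29.39% and 35.11% in DMSO-treated libraries, which leaves a smaller share to all other genes. The part of these shifts in the results on the repair genes was not tested, and in pooled embryos fewer embryos or cells expressing a gene and less RNA per cell cannot be told apart.

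In the p53 pathway 0 of 6 genes were called by limma and 1 had an unadjusted p under 0.05, against 20.5% and 40.2% of all genes. Both DMSO-treated libraries lay below both control libraries for 4 of them and above for 2, where 38.7% and 31.1% of all genes did so. Trp53, which encodes p53 itself, was at 7.77 and 7.19 TPM in control embryos and at 5.90 and 3.31 TPM in DMSO-treated embryos. The DMSO-treated libraries were the lower ones, and their own gap was wider than that between the control libraries (log2 fold change -0.64, 95% interval -1.49 to 0.22, limma adjusted p = 0.223). Mdm2, the ubiquitin ligase that degrades p53 and is itself a p53 target, was at 59.3 and 83.7 TPM in control and 28.4 and 41.2 TPM in DMSO-treated libraries (log2 fold change -1.02, limma adjusted p = 0.0638). Its relative Mdm4, which binds and silences p53, lay on the other side, at 882 and 888 TPM in control and 1528 and 1164 TPM in DMSO-treated libraries (0.59, limma adjusted p = 0.134). Mdm4 was the most abundant of the 41 genes in each library, on the per-length TPM scale.

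The p53 targets Cdkn1a, Gadd45a and Ccng1 did not all lie on one side. Cdkn1a, the inhibitor of cyclin-dependent kinases that carries out the p53 arrest, was at 41.7 and 88.0 TPM in control embryos and 35.2 and 39.7 TPM in DMSO-treated embryos. The control libraries differed from each other by more than control replicate 1 did from either DMSO-treated library (log2 fold change -0.68, limma adjusted p = 0.224). Gadd45a, a stress sensor linked to cell cycle arrest, was at 89.4 and 106 TPM against 60.0 and 72.0 TPM (-0.56, limma adjusted p = 0.158). Ccng1, which encodes cyclin G1, was at 5.99 and 4.19 TPM against 9.06 and 7.73 TPM (0.64, limma adjusted p = 0.191).

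Of 13 other p53 pathway genes tested, 2 fell and 4 rose, 46.2% of the 13, where 14.1% of all genes fell and 6.42% rose. The 13 were chosen with earlier results of these data known, so this share is a description and no evidence of an excess. Bax, the pore former of the mitochondrial death pathway, had 69.2 and 76.9 TPM in control embryos and 12.3 and 13 TPM in DMSO-treated embryos (log2 fold change -2.44, limma adjusted p = 0.0181). Aen, an apoptosis nuclease, went from 62.9 and 66.8 TPM to 23.3 and 21.7 TPM (-1.49, limma adjusted p = 0.0217). Those that rose included Btg2, an inhibitor of proliferation, at 3.43 and 1.56 against 21.4 and 15.8 TPM (2.53, limma adjusted p = 0.0188). Plk2, a stress-induced kinase, and Ppm1d, the phosphatase that turns the p53 response off, rose by 1.54 and 1.53 on the log2 scale (limma adjusted p = 0.0414 and 0.0328). The fourth was Gadd45g, a relative of Gadd45a, at 5.92 and 3.66 against 11.5 and 15.5 TPM (1.34, limma adjusted p = 0.043).

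Among the damage signalling genes, the double-strand break kinase Atm and its effector Chek2 fell, 2 of 7 tested (28.6%, beside 20.5% of all genes), and the replication stress counterparts Atr and Chek1 were not called. Atm (ENSMUSG00000034218, chr9:53439149-53536740, minus strand, GRCm38) was at 64.0 and 58.4 TPM in control embryos and 20.8 and 22.7 TPM in DMSO-treated embryos. The 2 groups were far apart and each was tight, with means of 61.2 ± 3.94 and 21.8 ± 1.34 TPM (SD, n = 2). This was a 2.81-fold lower mean with DMSO (log2 fold change -1.45, SE 0.26, 95% interval -2.07 to -0.83, limma adjusted p = 0.0221). Chek2 (ENSMUSG00000029521, chr5:110839979-110874145, plus strand), which encodes CHK2, was at 54.7 and 44.4 TPM in control and 14.7 and 20.2 TPM in DMSO-treated libraries. Its DMSO-treated libraries again lay below both control libraries, 2.84-fold lower in the mean (log2 fold change -1.46, SE 0.30, 95% interval -2.18 to -0.75, limma adjusted p = 0.0269).

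Atr, the kinase that responds to single-stranded DNA at stalled forks, was at 4.33 and 6.92 TPM in control embryos and 7.19 and 5.66 TPM in DMSO-treated embryos. The groups overlapped, and the interval of the log2 difference, -0.66 to 1.03, left room for either sign (limma adjusted p = 0.714). Its partner Atrip had 18.9 and 15.5 against 23.5 and 19.2 TPM (log2 fold change 0.30, limma adjusted p = 0.463). Chek1, which encodes the ATR target CHK1, was at 64.2 and 50.9 TPM in control and 157 and 88.6 TPM in DMSO-treated libraries. Both DMSO-treated libraries were higher, but they also stood far apart from each other (1.03, 95% interval 0.21 to 1.86, limma adjusted p = 0.075). The log2 fold change of Chek1 passed the threshold under quantile normalization (1.31), without DMSO replicate 2 (1.44) and with the replicate block (1.03, limma adjusted p = 0.0111). The plot of fold changes with intervals sets these genes side by side.

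**Figure D2:**
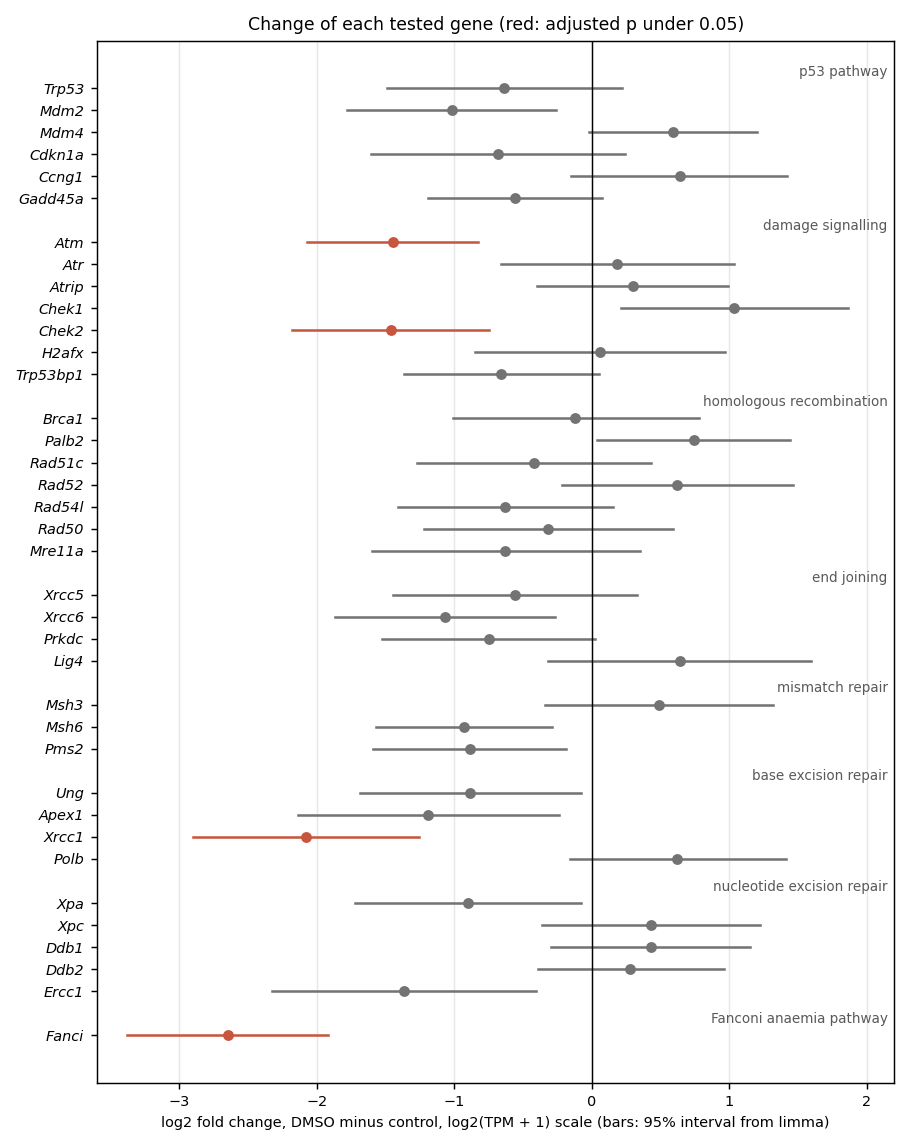
Log2 fold change of each of the 37 tested genes, DMSO-treated minus control, on the log2(TPM + 1) scale (x axis), with the limma estimate as a point and its 95% interval as a bar. The 4 genes past the threshold, in red, are Fanci, Xrcc1, Chek2 and Atm, all on the left of 0, while Chek1 is the point farthest to the right at 1.03.

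Of the listed chromatin factors of the same response, Trp53bp1 and H2afx were not called and Mdc1 was not tested. Trp53bp1, which encodes 53BP1 and steers breaks to end joining, was at 47.8 and 33.4 TPM in control and 26.6 and 23.3 TPM in DMSO-treated embryos (log2 fold change -0.66, limma adjusted p = 0.146). H2afx, the histone variant that is phosphorylated around breaks, was at 10.4 and 14.1 against 9.29 and 17.3 TPM, with overlapping groups (0.06, limma adjusted p = 0.912). Mdc1, the scaffold that binds that mark, was under the filter, at 0 and 0.951 TPM in control and 1.53 and 0.686 TPM in DMSO-treated libraries. Of 23 other damage signalling genes tested, 3 fell and 1 rose, 17.4% beside 20.5% of all genes. Rnf168, the ubiquitin ligase that marks damaged chromatin for 53BP1, fell from 29.3 and 31 to 3.84 and 5.01 TPM (-2.53, limma adjusted p = 0.0181). Cdc25c, the phosphatase held back by the checkpoint kinases, was at 185 and 133 against 64.8 and 65.2 TPM (-1.26, limma adjusted p = 0.03), and Tipin, a fork protection protein, fell by 0.86 on the log2 scale (limma adjusted p = 0.0464). Tti1, a cofactor that stabilizes ATM, ATR and their relatives, was the gene called higher. It was at 0.598 and 0 TPM in control and 7.97 and 2.76 TPM in DMSO-treated libraries. It passed the filter only through the latter, so its call is no support for a rise.

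The sequences upstream of Atm and Chek2 are shown because both genes fell together. RefSeq promoter entries (GRCm38.p6) existed for 33 of the 41 genes, and the stretches printed lie before the RefSeq start, outside the GENCODE exons of the gene, 5′ to 3′ on the gene's strand. The RefSeq start lies at base 53536671 of chromosome 9 for Atm and 110839983 of chromosome 5 for Chek2, both inside the GENCODE gene bounds, and the distances given count from it. They cover chr9:53536741-53536921 (minus strand) for Atm and chr5:110839733-110839978 (plus strand) for Chek2.
Atm: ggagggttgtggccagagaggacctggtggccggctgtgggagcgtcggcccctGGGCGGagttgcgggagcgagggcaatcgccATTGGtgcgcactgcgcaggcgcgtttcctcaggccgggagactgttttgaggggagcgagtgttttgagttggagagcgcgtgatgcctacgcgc
Chek2: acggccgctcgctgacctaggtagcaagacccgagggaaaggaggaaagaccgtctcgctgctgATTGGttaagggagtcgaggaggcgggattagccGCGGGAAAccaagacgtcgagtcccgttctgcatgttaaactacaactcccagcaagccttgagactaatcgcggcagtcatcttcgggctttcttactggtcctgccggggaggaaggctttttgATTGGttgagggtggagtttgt
Capitals mark matches, on either strand, to the CCAAT box (CCAAT, read here as ATTGG), the GC box (GGGCGG) and the E2F motif (TTTCCCGC, read here as GCGGGAAA). The Atm stretch held a GC box 196 bases and a CCAAT box 165 bases before the RefSeq start, and the Chek2 stretch held CCAAT boxes 186 and 26 bases before the start and an E2F match 152 bases before it.

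Over the 250 bases before the start, a CCAAT box occurred in 18 of the 33 listed genes with an entry (54.5%) and in 41.5% of 8479 tested genes, and a GC box in 22 (66.7%) and 60.7%. An E2F match (TTTCCCGC, TTTCGCGC, TTTGCCGC or TTTGGCGC) occurred in 4 of the 33 (12.1%) and in 3.87% of the 8479. The cell cycle element TTTGAA was in 0 of the 33 windows and in 13.3% of the 8479. A GC box and an E2F match can share bases, and a match is only a description of these windows.

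No gene of homologous recombination was called by limma among the 7 tested, and 1 had an unadjusted p under 0.05, beside 20.5% and 40.2% of all genes. Palb2, a scaffold that binds BRCA1 at breaks, was at 19.3 and 18.9 TPM in control and 38.6 and 27.6 TPM in DMSO-treated embryos. The DMSO-treated libraries were both higher and the control libraries nearly equal (log2 fold change 0.74, 95% interval 0.04 to 1.44, limma adjusted p = 0.111). Rad52, which anneals single strands, was at 8.98 and 6.98 against 16.2 and 10.0 TPM (0.62, limma adjusted p = 0.221). Rad54l, a DNA motor of the strand exchange step, was at 18.5 and 13.5 against 8.43 and 11.5 TPM (-0.63, limma adjusted p = 0.191).

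The other 4 tested genes of homologous recombination were low, at 9.23 TPM or less in every library. Rad51c, a factor of strand exchange, was at 9.23 and 5.70 against 5.78 and 4.64 TPM, and Brca1, which promotes strand resection, at 1.45 and 0.750 against 1.17 and 0.675 TPM. Rad50 and Mre11a, subunits of the nuclease complex that first binds breaks, were at 2.13 and 3.37 against 1.49 and 2.54 TPM and at 3.69 and 1.81 against 0.998 and 1.77 TPM. For Rad51c, Brca1 and Rad50 the groups overlapped. The third subunit of that complex, Nbn, was listed at 0 in all 4 libraries.

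Among 30 other genes of homologous recombination tested, 2 fell and 2 rose, a share of 13.3% against 20.5% of all genes. Dna2, a nuclease of long-range resection, was at 69.9 and 64.3 TPM in control and 23.3 and 33.2 TPM in DMSO-treated libraries (log2 fold change -1.24, limma adjusted p = 0.0337). Rad51ap1, a DNA-binding factor of strand exchange, was at 68.2 and 54.8 against 23.2 and 31.6 TPM (-1.14, limma adjusted p = 0.0408). Exo1, the other long-range nuclease, rose from 52.7 and 39.8 to 110 and 86.5 TPM (1.07, limma adjusted p = 0.0439), and the helicase gene Helq from 83.4 and 52.0 to 164 and 144 TPM (1.21, limma adjusted p = 0.0402). The 2 resection nucleases thus moved in opposite directions.

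None of the 4 end joining genes was called by limma, and 1 had an unadjusted p under 0.05, where 20.5% and 40.2% of all genes did so. The DMSO-treated libraries lay below both control libraries for 3 and above them for 1, again beside 38.7% and 31.1% of all genes. Xrcc6 and Xrcc5, the Ku70 and Ku80 subunits of the ring that holds broken ends, were at 7.66 and 5.79 against 2.36 and 2.97 TPM (log2 fold change -1.07, limma adjusted p = 0.0634) and at 4.17 and 4.17 against 3.46 and 1.77 TPM (-0.56, limma adjusted p = 0.29). Prkdc, the DNA-dependent protein kinase that Ku recruits, was at 3.28 and 3.29 TPM in control and 1.52 and 1.57 TPM in DMSO-treated libraries (-0.75, 95% interval -1.53 to 0.02, limma adjusted p = 0.132). Its libraries agreed closely within each group, at levels where a step on the log2(TPM + 1) scale understates a fold change. Lig4, the ligase that seals the ends, was at 7.72 and 5.96 against 15.8 and 7.75 TPM (0.64, limma adjusted p = 0.267). Of 7 other end joining genes tested, 0 were called by limma, and 1 had an unadjusted p under 0.05, against the same 20.5% and 40.2%.

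In mismatch repair, 0 of 3 genes were called by limma and 2 had an unadjusted p under 0.05, beside 20.5% and 40.2% of all genes. Msh6, which recognizes single mismatches, was at 33.7 and 31.3 TPM in control and 16.9 and 16.3 TPM in DMSO-treated embryos. The groups were tight and well apart, and the adjusted p just missed the threshold (log2 fold change -0.93, 95% interval -1.57 to -0.29, limma adjusted p = 0.0527). Pms2, the nuclease subunit that acts after recognition, was at 98.6 and 70.0 against 40.1 and 49.2 TPM (-0.89, limma adjusted p = 0.0729). With the replicate block Msh6 and Pms2 were both called lower (limma adjusted p = 0.0169 and 0.0305), a fit that called 24.8% of all genes lower. Msh3, which recognizes larger loops, was at 28.3 and 21.4 against 45.4 and 26.8 TPM with overlapping groups (0.49, limma adjusted p = 0.322). Of 3 other mismatch repair genes tested, 1 (33.3%) was called, beside 20.5% of all genes. Mlh3, an endonuclease subunit of the pathway, was the gene called lower, at 4.21 and 2.63 TPM in control and 0.684 and 0.805 TPM in DMSO-treated libraries. It passed the filter only through the control group, so its call and the share resting on it are no support for a fall.

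Base excision repair held 1 called gene of 4 tested (25%, beside 20.5% of all genes). Xrcc1 (ENSMUSG00000051768, chr7:24546289-24573440, plus strand) was at 3.77 and 3.63 TPM in control embryos, and at 0.231 TPM in DMSO replicate 1 and listed at 0 in DMSO replicate 2. The control libraries were nearly equal and the DMSO-treated libraries near or at 0. Since the gene was tested only because of its control level, that share of 25% and the estimate that follows are descriptions (log2 fold change -2.08, SE 0.34, 95% interval -2.90 to -1.26, limma adjusted p = 0.0209). The log2 fold change of Xrcc1 depended on the pseudocount, being -4.38 with 0.1 in place of 1, and TPM give no depth from which to judge a 0.

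The other listed genes of that pathway that were tested, Ung, Apex1 and Polb, were not called. Ung, the glycosylase that removes uracil, was at 42.6 and 33.8 TPM in control and 15.6 and 25.8 TPM in DMSO-treated libraries (log2 fold change -0.89, limma adjusted p = 0.0996). Apex1, the endonuclease that cuts at the emptied site, was at 7.53 and 5.26 against 3.15 and 1.47 TPM (-1.19, limma adjusted p = 0.0745). Its value is uncertain, because 61.7% of its exon bases overlap Pip4p1 on the opposite strand, 57.1% of its 31-base words occur in other genes as well, and the library kit does not mark strand. Pip4p1 itself was at 19.1 and 18.2 against 4.03 and 10.2 TPM. Polb, the polymerase that fills the gap, was at 27.2 and 35.3 TPM in control and 61.1 and 38.1 TPM in DMSO-treated libraries, higher in both but unevenly so (0.62, limma adjusted p = 0.199). Ogg1, the glycosylase for oxidized guanine, was under the filter, at 1.05 and 1.37 against 0.549 and 0 TPM. Among 15 other genes tested, 1 (6.67%) was called, beside 20.5% of all genes. Aptx, which cleans aborted ligation ends and binds XRCC1, fell from 17.2 and 15.9 to 3.49 and 3.11 TPM (-2.03, limma adjusted p = 0.0181).

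In nucleotide excision repair 0 of 5 genes were called by limma and 2 had an unadjusted p under 0.05, where all genes gave 20.5% and 40.2%. Ercc1, a subunit of the nuclease that cuts 5′ of a lesion, was the most abundant of these 5 listed genes in control embryos. It was at 210.0 and 247 TPM there and at 58.5 and 131 TPM in DMSO-treated embryos. The DMSO-treated libraries were both lower but differed from each other by more than the control libraries did (log2 fold change -1.37, 95% interval -2.33 to -0.41, limma adjusted p = 0.0549). Xpa, which verifies the damage, was at 94.4 and 54.0 against 34.2 and 41.8 TPM (-0.90, limma adjusted p = 0.10).

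The 3 recognition factors of the list lay above 0 on the log2 scale without a call. Ddb1, Ddb2 and Xpc, which find lesions in chromatin, had log2 fold changes of 0.43, 0.28 and 0.43 with limma adjusted p of 0.318, 0.472 and 0.351. Ddb1 was at 76.1 and 56.3 TPM in control and 104 and 74.7 TPM in DMSO-treated libraries, with overlap, and Ddb2 at 18.2 and 15.5 against 21.8 and 19.6 TPM. Xpc was scarce, at 1.45 and 1.26 against 2.21 and 2.14 TPM, and for Ddb2 20.6% of the 31-base words occur in other genes. Of 17 other genes tested, 2 fell (11.8%, against 14.1% of all genes), and both encode subunits of TFIIH, the complex that opens the DNA. Its subunit genes Gtf2h1, Gtf2h3, Gtf2h4, Ercc2 and Ercc3 were tested too and were not called. Their log2 fold changes ran from -0.91 to -0.24, with limma adjusted p from 0.0623 to 0.659. Gtf2h2 was at 21.0 and 32.2 against 4.32 and 7.32 TPM (-2.02, limma adjusted p = 0.0228), and Gtf2h5 at 246 and 320 against 103 and 161 TPM (-1.12, limma adjusted p = 0.0491).

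Fanci (ENSMUSG00000039187, chr7:79391929-79450264, plus strand) had the lowest log2 fold change of the 37 genes on the log2(TPM + 1) scale, while with a pseudocount of 0.1 that of Xrcc1 was lower. It was at 48.7 and 35.2 TPM in control embryos and 5.98 and 5.57 TPM in DMSO-treated embryos. The means were 42 ± 9.6 and 5.77 ± 0.291 TPM (SD, n = 2), 7.27-fold lower with DMSO, and the groups were far apart (log2 fold change -2.65, SE 0.30, 95% interval -3.38 to -1.92, limma adjusted p = 0.0181). A stretch of 15.95% of its exon bases overlaps Polg on the opposite strand, and 14.2% of its 31-base words occur in other genes, while Polg itself was at 5.55 and 5.18 TPM in control and 4.3 and 6 TPM in DMSO-treated libraries. For Chek2, Xrcc1 and Atm the share of such words was 6.56%, 0.96% and 0.13%, with no exon overlap. The longest stretch outside exons in the 250 bases before the RefSeq start of Fanci (base 79392338 of chromosome 7) is short (chr7:79392266-79392307, plus strand, GRCm38.p6), lies inside the GENCODE gene bounds and is shown because Fanci is among the 4 genes called. It is far shorter than those of Atm and Chek2 and holds none of the motifs searched, so it has no capitals, but the whole 250-base window before the start, which reaches into exons of the gene, held a GC box and no CCAAT box, E2F match or TTTGAA.
Fanci: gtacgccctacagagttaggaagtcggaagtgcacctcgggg
No match says only that those letters are not in the window.

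Fancd2, the partner with which FANCI forms its clamp on DNA, was under the filter at 0.708 and 1.68 TPM in control and 0.849 and 0.466 TPM in DMSO-treated libraries. The partners thus had very different TPM values in the control libraries, and TPM give no depth from which to judge a low value. Of 14 other genes of the pathway tested, 2 fell and 1 rose, which was 21.4% beside 20.5% of all genes. Faap24, which helps load the core complex, was at 10.6 and 3.94 TPM in control libraries and listed at 0 in both DMSO-treated libraries. It passed the filter only through the control group, so its call is no support for a fall. Fancf, an adaptor of the core complex, was at 6.13 and 5.36 against 1.39 and 1.46 TPM (log2 fold change -1.48, limma adjusted p = 0.0304), and Fancb, another core subunit, rose from 1.51 and 1.17 to 5.44 and 4.43 TPM (1.34, limma adjusted p = 0.0386).

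**Figure D3:**
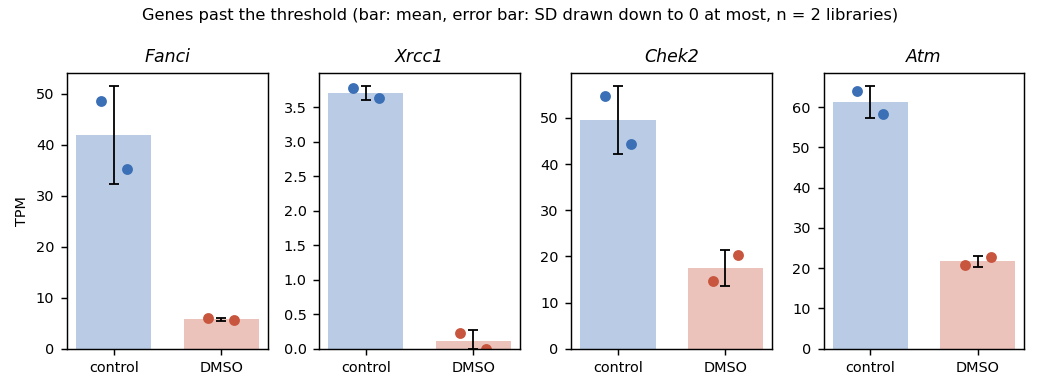
TPM (y axis, from 0, a separate scale for each gene) of the 4 genes past the threshold in control and DMSO-treated embryos, with bars for the mean, error bars for the SD over 2 libraries and points for the libraries. Every DMSO-treated point sits below both control points, from 5.57 and 5.98 against 35.2 and 48.7 for Fanci to 20.8 and 22.7 against 58.4 and 64.0 for Atm.

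Ratios of related genes within a library do not change when all genes of that library are scaled by a common factor. For this reason 5 pairs of genes with related roles were set side by side. The pairs were chosen after their values were seen, so no test is given. In each, a gene with a positive log2 fold change was set over one with a negative log2 fold change. A higher ratio with DMSO therefore follows from the choice of pairs. With 2 libraries against 2, the smallest p an exact two-sided permutation test can give is 0.33. Mdm4 stood at 14.9 and 10.6 times the level of Mdm2 in control embryos and at 53.8 and 28.3 times in DMSO-treated embryos. Chek1 and Chek2 were at nearly equal TPM in control embryos, with ratios of 1.18 and 1.14, and at 10.7 and 4.39 in DMSO-treated embryos. The ratio of Atr to Atm was 0.0677 and 0.118 in control and 0.345 and 0.249 in DMSO-treated libraries, so Atm transcripts stayed the more abundant of the pair throughout. Msh3 was the scarcer of the pair of mismatch recognition genes in control embryos, at 0.838 and 0.684 of the Msh6 level, and the more abundant in DMSO-treated embryos, at 2.69 and 1.65. The ratio of Polb to Xrcc1 was 7.21 and 9.72 in control libraries and 265 in DMSO replicate 1, and could not be formed in DMSO replicate 2, where Xrcc1 was listed at 0.

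**Figure D4:**
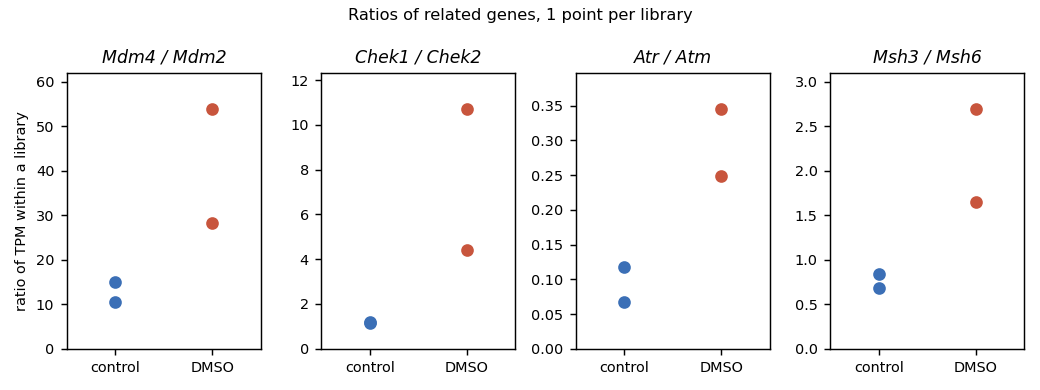
Ratio of the TPM of 2 related genes within each library (y axis, from 0, a separate scale for each pair), with 1 point per library for control and DMSO-treated embryos. In each of the 4 pairs with a ratio in every library (all but Polb to Xrcc1) both DMSO-treated points lie above both control points. For Chek1 to Chek2 these are 10.7 and 4.39 against 1.18 and 1.14. The pairs were chosen after their values were seen. Each sets a gene with a positive log2 fold change over one with a negative log2 fold change, so the shared direction follows from that choice.

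Beyond the listed genes, 131 of 159 other genes of these pathways and of translesion synthesis and direct reversal passed the filter, and 16 fell and 8 rose, 18.3% of those tested beside 20.5% of all genes. Of these calls, 2 lower (Mlh3 and Faap24) and 1 higher (Tti1) were of genes that passed the filter through one group only. The median log2 fold change of the 131 genes was -0.24. They were chosen with earlier results of these data known, so their shares are a description. Quantile normalization gave 10 lower and 12 higher, so the balance between falling and rising genes depended on the scaling. In translesion synthesis and direct reversal 3 of 9 tested (33.3%) fell and 0 rose, where 14.1% of all genes fell. Alkbh3, which repairs alkylated bases directly, was at 7.24 and 7.38 TPM in control and 1.39 and 1.46 TPM in DMSO-treated libraries (-1.78, limma adjusted p = 0.0221). Ube2b, the conjugating enzyme that ubiquitinates PCNA, was at 78.7 and 114 against 36.1 and 47.5 TPM (-1.17, limma adjusted p = 0.0421), and Mad2l2, a subunit of the translesion polymerase zeta, at 237 and 285 against 115 and 139 TPM (-1.03, limma adjusted p = 0.0389).

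**Figure D5:**
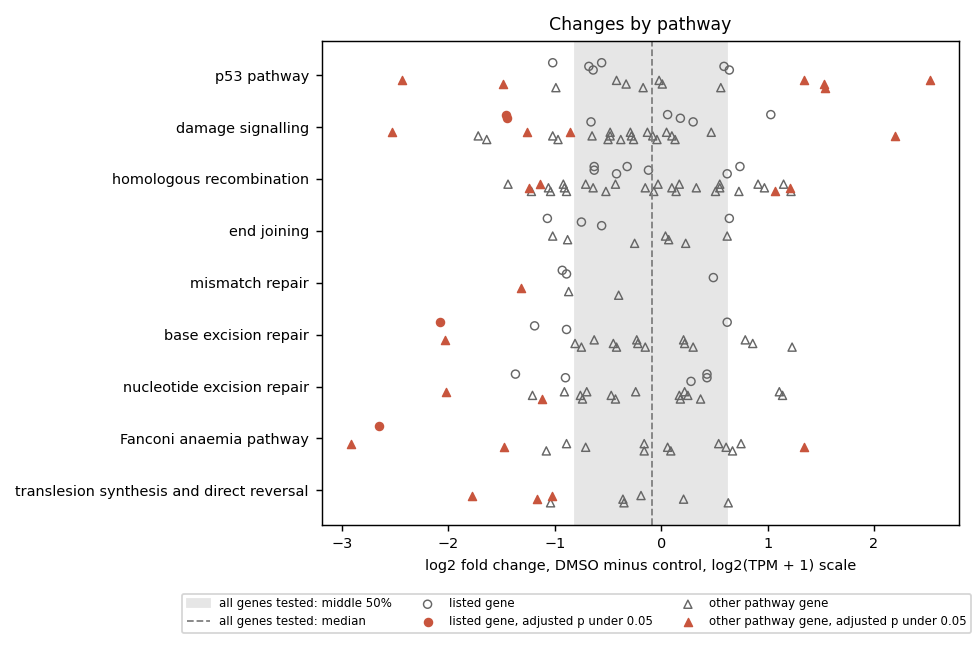
Log2 fold change, DMSO-treated minus control, on the log2(TPM + 1) scale (x axis) of the 37 listed genes (circles) and 131 other pathway genes (triangles) in each pathway, with genes past the threshold in red. The dashed line marks the median of all genes tested, -0.09, and the grey band their middle part, and red points lie on the left in every pathway but end joining and on the right only in the p53, damage signalling, homologous recombination and Fanconi anaemia rows.

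Length, base composition and level of the listed genes were set beside those of all tested genes. Their median transcript length was 3512 bases against 2692 bases for all tested genes, their median GC content 47.4% against 49.3%, and their median level 4.30 against 3.16 on the log2(TPM + 1) scale. Across the 37 genes, which share the same 4 libraries and are not independent, the Spearman correlation of the log2 fold change was -0.37 with GC content, 0.08 with length and 0.02 with level, given as a description only.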

How the data were processed

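Pools of 2-cell embryos were processed by the authors with a SMARTer Ultra Low Input kit, which does not mark strand, and quantified with kallisto against an Ensembl mouse transcriptome (GRCm38, mm10). The deposited unit is TPM per gene, which keeps no depth, so no counting error can be given. The columns of the 4 libraries summed to 768174, 780527, 772487 and 799166 TPM. The sources give both a single-end and a paired-end read layout. Of 30049 rows, 29589 were named by GENCODE M21. Where the mean over the libraries reached 1 TPM, a gene entered limma 3.58.1 (R 4.3.3, empirical Bayes with trend, DMSO minus control, no further scaling) as log2(TPM + 1), with Benjamini-Hochberg adjustment at 0.05, and the code was tested on simulated data. Fold changes on that scale understate low genes. Replicates correlated at r = 0.963 (control) and 0.948 (DMSO) across genes. The 42 genes, the other pathway genes and the markers were chosen with earlier results of these data known. Named other genes were at most the 3 largest calls in each direction per pathway; Gadd45g was added after its values were seen. Alternatives were pseudocount, filter, trend, scaling, replicate block and leaving out each library. Genes lacking a row were not analysed here.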

Additional observations from a re-analysis of the deposited data

How the results depend on the processing

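No called result reversed, while Atr, H2afx and Brca1, not called, changed sign when 1 library was left out. The 4 listed genes called lower and 0 called higher kept their counts with a pseudocount of 0.1, without a trend and with median-ratio scaling. Without the filter on low values 0 listed and 0 other pathway genes were called in either direction. With a mean of at least 5 TPM, 6 of the 28 listed genes tested were called lower, beside 1684 of all 7470 genes tested. In that fit base excision repair had 0 lower calls, since Xrcc1 was not tested. There 1 lower call each appeared in the p53 pathway (Mdm2), mismatch repair (Msh6) and nucleotide excision repair (Ercc1). Quantile normalization called 1 listed gene higher (Chek1) and 10 of the other genes lower, median-ratio scaling gave 11 lower and 11 higher other genes, and leaving out the trend gave 5 other genes higher. Leaving out 1 library at a time, fits in which the lone library is assumed to vary like the other group, gave 0 to 5 listed genes lower and 0 to 1 higher, damage signalling 0 to 2 lower and 0 to 1 higher, base excision repair and the Fanconi anaemia pathway 0 to 1 lower each, nucleotide excision repair 0 to 1 lower (Ercc1, without DMSO replicate 2), and 0 to 14 other genes lower and 0 to 4 higher. The median of the listed genes stayed between -0.68 and -0.42. Over all genes, calls higher and lower were 605 and 1448 with a pseudocount of 0.1, 766 and 1684 at 5 TPM, 629 and 1397 without a trend, 949 and 1262 with median-ratio scaling and 1076 and 1121 with quantile normalization.

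The replicate numbers are shared between the groups, but nothing says that a number marks a shared litter or batch, and with 2 pairs the deviations of same-numbered libraries correlated at r = 0.354. The fit with a replicate block called 2151 genes higher and 2981 lower, 17.9% and 24.8% of those tested. Of the listed genes 12 were called lower and 3 higher with the block (Mdm4, Chek1 and Palb2), which was 1 lower and 1 higher in the p53 pathway, 3 lower and 1 higher in damage signalling, 1 higher in homologous recombination, 1 lower each in end joining and the Fanconi anaemia pathway, and 2 lower each in mismatch repair, base excision repair and nucleotide excision repair. The 12 listed genes called lower were Mdm2, Atm, Chek2, Trp53bp1, Xrcc6, Msh6, Pms2, Apex1, Xrcc1, Xpa, Ercc1 and Fanci. Under the block 37 of the other genes were lower and 16 higher.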
